A study of Homo sapiens with 24 samples.

Results

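The BCL2 family decides whether the outer membrane of the mitochondria is opened during intrinsic apoptosis. Here 10 of its genes were followed in 2 lung adenocarcinoma cell lines given Pirfenidone: the survival genes BCL2, BCL2L1 and MCL1, the pore formers BAX and BAK1, and the BH3-only genes BCL2L11, BID, PMAIP1, BMF and BAD. The members were all probes whose gene name in the array files was one of these 10, out of 25992 gene names on the array. They had 17 probes of 34127 on the array. All 17 were among the 23827 probes tested, a set limited to probes that cleared the background on each of the 3 arrays in 1 or more groups. A total of 4 members had 1 probe each, 5 had 2 probes and BCL2L11 had 3.

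A549 and H1975 cells received Pirfenidone, an anti-fibrotic drug, at 0.75 mg/ml, or PBS in the same volume, and were kept for 6 h or 24 h. The dose is that of the labels, and a legend of the study names a higher one for its A549 transcriptome data. Both are established lines grown from human lung adenocarcinoma, so each stands for 1 tumor only. Line, treatment and time made 8 groups of 3 samples, and the RNA of every sample went onto a one-color Agilent array of its own, 24 in all. The methods speak in general of independent experiments, but neither they nor the labels say which array samples came from separate cultures. The p-values measure the spread between these samples, part of which may be technical.

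BCL2, BCL-xL (the product of BCL2L1) and MCL1 hold the pore formers BAX and BAK in check. BH3-only proteins such as BIM (BCL2L11), BID, NOXA (PMAIP1), BMF and BAD are made or activated under stress and either occupy the survival proteins or activate the pore formers directly. Once pores form, cytochrome c leaves the mitochondria and caspase-9 is activated on the apoptosome. Much of this control acts on the proteins, which arrays of RNA do not measure.

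All levels are background-corrected signals on the log2 scale, less the 75th percentile of the array they came from, and all differences are log2 differences between groups in limma, with a standard error (SE) from 1 fit of 24 arrays. Levels of different probes are not on a common scale and were not compared. A probe passed if its p, adjusted by Benjamini-Hochberg over all 23827 probes, was at most 0.05 and its difference was 1 or more in size, which is a fold of 2. Where the fold limit was left out, this is said. The array number, 3 per group, limits the precision. The arrays fell into 4 runs, numbered 1 to 4 here, by a date in the array names whose meaning is not stated, and lay on 7 slides. A549 was on runs 1, 2 and 3 and H1975 on runs 1, 3 and 4. Treatment and time set the place of a sample on its slide, so place and treatment cannot be told apart. A total of 15 member probes were well above background on all 24 arrays. The BCL2 probe A_23_P352266 was so on 21 arrays and the BMF probe A_33_P3346801 on 20, and both missed arrays of A549 alone. All 5 epithelial markers cleared the background on all 24 arrays, and of 8 genes that mark other cells CDH5 alone did, while DCN did on no array. For PTPRC, 1 probe cleared it on 23 arrays and the other probes on 1 array or none. Of the same 8 genes, PECAM1 and COL1A2 were well above background on the 12 H1975 arrays and not in A549. LUM was so on the 12 A549 arrays and not in H1975. The part of such genes in the differences between the lines was not tested, and fewer cells with a transcript cannot be told apart from less RNA per cell.

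**Figure D1:**
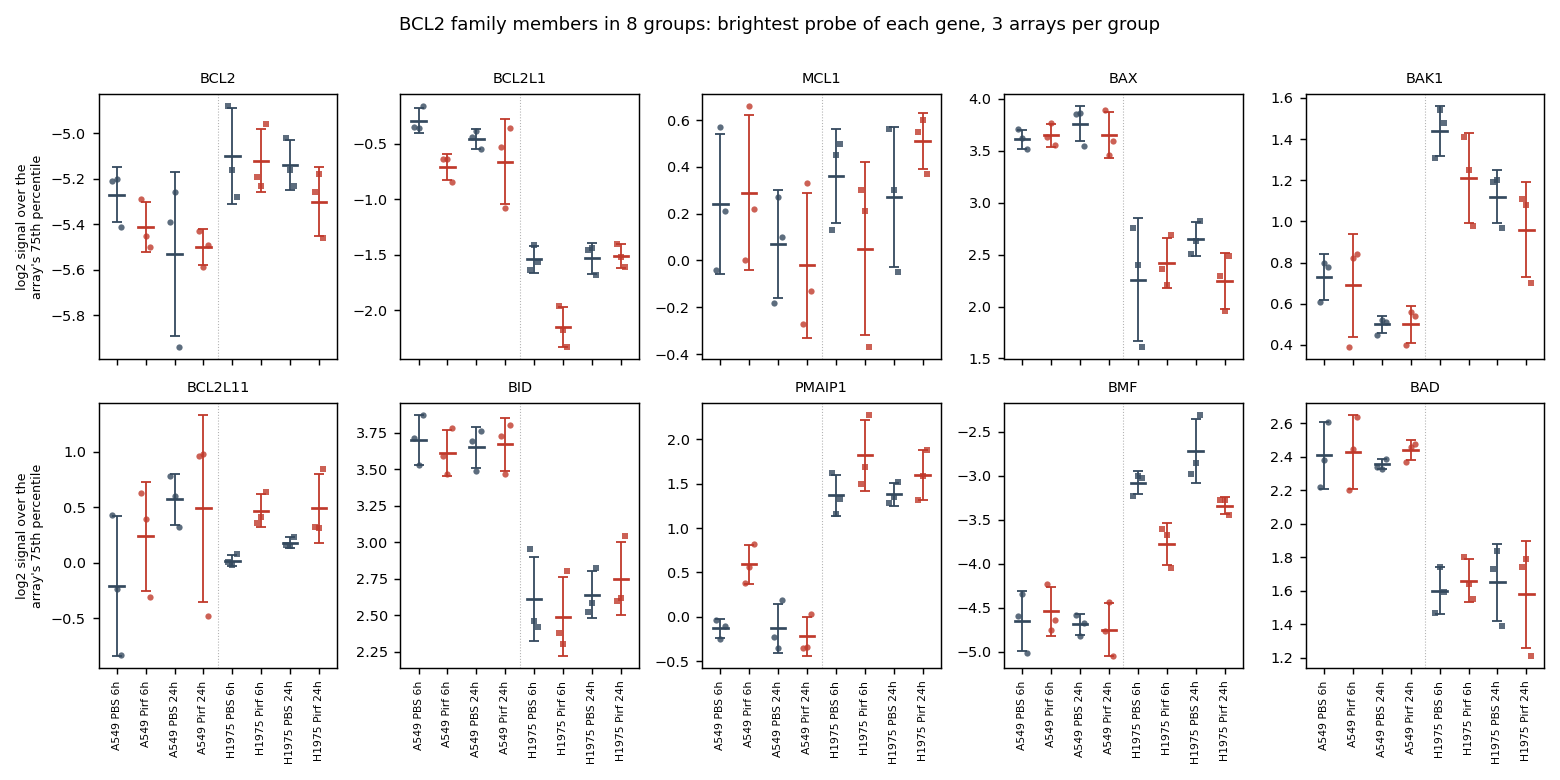
Log2 signal over the 75th percentile of the array (vertical axes) of the brightest probe of each of the 10 members in the 8 groups, with each of the 3 arrays as a point and the mean and SD as bars, PBS in dark and Pirfenidone in red, A549 as circles left of the dotted line and H1975 as squares right of it. BCL2L1, BAX, BID and BAD lay lower and PMAIP1, BMF and BAK1 higher in H1975, and no drug difference of any member reached the fold limit.

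Promoter letters are shown because factors of the ATF and FOXO families are among the known regulators of these genes. Of the 10 members, 9 had at least 1 promoter window in the RefSeq table of assembly GRCh38.p14, 16 windows in all. MCL1 had none there. The 250 bases before the start were searched on both strands for TGACGT, the core bound by factors of the ATF family, and for TGTTTAC, a core bound by FOXO factors. TGACGT was found in 3 of the 16 windows, which were the PMAIP1 window and both overlapping BAD windows, against 7.1% of all 35116 windows. TGTTTAC was found in BCL2L11 alone, against 2.98%. A match is a description of letters, not a bound site. The windows of PMAIP1 and BCL2L11 are shown, 5′ to 3′ along the gene, with the match in capitals. PMAIP1 (chr18:59899746-59899995, plus strand) held TGACGT on the opposite strand, 56 to 51 bases before the start. BCL2L11 (chr2:111120664-111120913, plus strand) held TGTTTAC on the opposite strand, 223 to 217 bases before the start.
PMAIP1: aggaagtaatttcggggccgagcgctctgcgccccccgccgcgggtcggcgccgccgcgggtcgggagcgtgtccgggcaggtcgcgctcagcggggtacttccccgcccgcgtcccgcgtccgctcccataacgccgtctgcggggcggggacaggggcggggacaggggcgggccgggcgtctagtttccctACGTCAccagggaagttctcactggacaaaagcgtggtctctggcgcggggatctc
BCL2L11: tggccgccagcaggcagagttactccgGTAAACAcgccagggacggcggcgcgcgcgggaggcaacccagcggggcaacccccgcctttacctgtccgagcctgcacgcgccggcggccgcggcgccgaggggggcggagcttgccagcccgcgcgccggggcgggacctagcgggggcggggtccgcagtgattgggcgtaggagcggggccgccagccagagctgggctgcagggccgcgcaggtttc

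BAX and BCL2L11 were read by several probes of 60 bases that lie apart in the gene and gave unequal results, so the first 30 bases of each are shown as the array files give them. The coordinates are those of the files on hg19, for which no annotation was used here. The BAX probe A_23_P208706 lies at chr19:49464904-49464963 and A_33_P3341144 at chr19:49464454-49464513, under accessions of different transcripts. The BCL2L11 probe A_24_P122921 lies at chr2:111925892-111925951, A_33_P3251932 at chr2:111886352-111886411 and A_33_P3398526 at chr2:111878705-111878764.
BAX A_23_P208706: tgccttggactgtgtttttcctccataaat
BAX A_33_P3341144: ctgcctctggaattgctcaagttcattgat
BCL2L11 A_24_P122921: acttgtgttttgcactgatgaattttgaca
BCL2L11 A_33_P3251932: ctctctccctcttccttgagcattttgtca
BCL2L11 A_33_P3398526: cctttcttggcccttgttcccccaaatgtc

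The largest differences of the members lay between the lines. In PBS at 6 h, 7 of 17 member probes passed, of which H1975 was higher than A549 for 2 and lower for 5, and the counts at 24 h were the same. These were probes of the same 5 genes at both times: PMAIP1 and BMF were higher in H1975, and BCL2L1, BAX (both probes) and BID (both probes) were lower. The background was high, since 32.4% of all tested probes passed at 6 h and 32.9% at 24 h, so the 41.2% of the member probes that passed lies near the background. Without the fold limit 9 member probes passed at 6 h (58.6% of all probes) and 10 at 24 h (59.2% of all probes), with BAK1 and BAD added at both times and BCL2 at 24 h. The median difference of the 17 probes was 0.11 at 6 h and 0.13 at 24 h, beside 0.06 and 0.08 over all probes tested. The arrays of the 2 lines did not overlap for 10 member probes at 6 h and 11 at 24 h, where 66.3% and 63.7% of all probes did not.

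**Figure D2:**
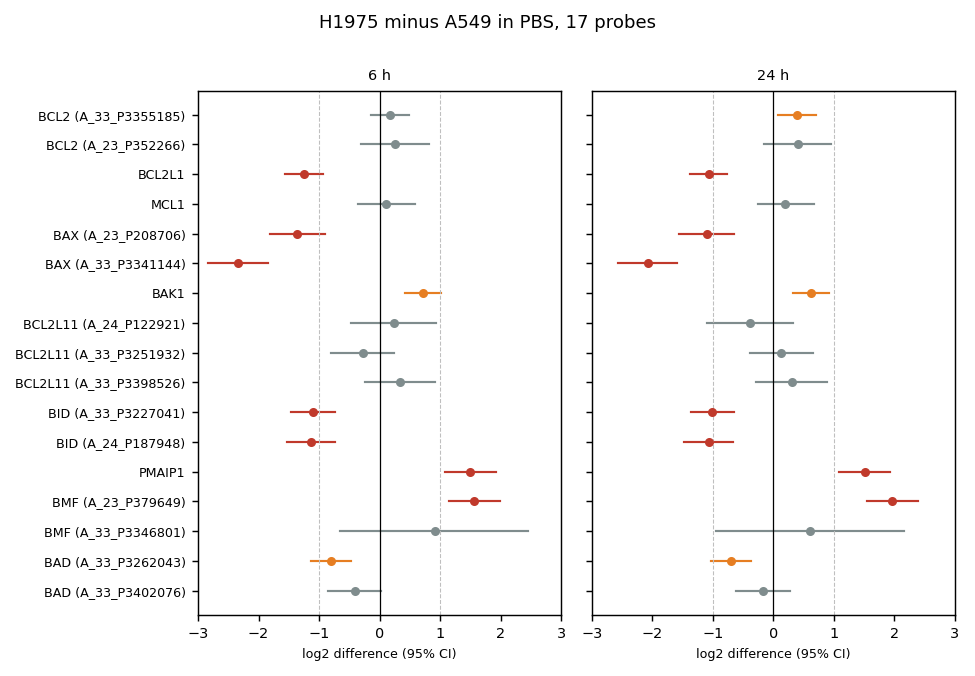
Log2 difference of H1975 minus A549 in PBS (horizontal axes) with its 95% confidence interval for the 17 member probes at 6 h and 24 h. Red probes passed with the fold limit, which dashed lines mark at -1 and 1, orange probes passed the adjusted p alone, and gray probes passed neither. The 2 times gave the same red probes.

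Among the survival genes BCL2, BCL2L1 and MCL1, BCL2L1 was the one that separated the lines past the fold limit. Its probe (chr20:30253324-30253383, hg19) read -0.35, -0.36 and -0.16 in the 3 untreated A549 samples at 6 h and -1.64, -1.41 and -1.56 in those of H1975. No H1975 array reached the lowest A549 array. The level was 2.37-fold lower in H1975 at 6 h (log2 difference -1.25, SE 0.15, limma adjusted p = 7.4e-07) and 2.10-fold lower at 24 h (log2 difference -1.07, limma adjusted p = 5.2e-06). Within the 2 runs that held both lines, the differences at 6 h were -1.48 in run 1 and -1.05 in run 3. MCL1, a short-lived survival protein, read -0.04, 0.57 and 0.21 in untreated A549 and 0.13, 0.45 and 0.50 in untreated H1975 at 6 h. These groups overlapped, and the difference of 0.11 at 6 h had an SE of 0.22 (limma adjusted p = 0.69). The BCL2 probe A_33_P3355185 differed by 0.39 (SE 0.15, limma adjusted p = 0.033) at 24 h and by 0.17 (limma adjusted p = 0.356) at 6 h. The 24 h value fell to 0.03 after normexp background correction, where it did not pass, and it did not pass without A549 replicate 3, H1975 replicate 1 or H1975 replicate 2, at values down to 0.19. The other BCL2 probe did not pass at either time and was dim in A549, where 1 of 3 arrays was not well above background in each group but PBS at 6 h.

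Of the pore formers, BAX was lower and BAK1 higher in H1975. The BAX probe A_23_P208706, with 10 spots on each array, read 3.71, 3.62 and 3.52 in untreated A549 at 6 h and 2.76, 2.4 and 1.61 in untreated H1975. The H1975 arrays spread more than those of A549 (SD 0.59 against 0.09) and still lay below all of them. The difference was -1.36 (SE 0.22, limma adjusted p = 2.6e-05) at 6 h and -1.10 (limma adjusted p = 2.4e-04) at 24 h. The second BAX probe, A_33_P3341144, read -0.28, -0.32 and -0.42 in A549 and -2.25, -2.58 and -3.22 in H1975. That is a 5.07-fold lower level (log2 difference -2.34, SE 0.23, limma adjusted p = 6.1e-08), and at 24 h it was 4.23-fold lower. The 2 BAX probes thus differed in size, not in direction. BAK1, which forms the same kind of pore as BAX, read 0.61, 0.80 and 0.78 in A549 and 1.31, 1.54 and 1.48 in H1975 at 6 h, and these groups did not overlap. It was 1.64-fold higher (log2 difference 0.71, SE 0.14, limma adjusted p = 2.3e-04) at 6 h and 1.54-fold higher at 24 h (limma adjusted p = 8.0e-04), which is under the fold limit.

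The BH3-only genes did not go one way. PMAIP1, which encodes the MCL1-binding protein NOXA, read -0.04, -0.25 and -0.10 in untreated A549 and 1.62, 1.16 and 1.33 in untreated H1975 at 6 h. All 3 H1975 arrays lay above all A549 arrays at both times. The difference was 1.5 (SE 0.20, limma adjusted p = 2.8e-06) at 6 h and 1.51 (limma adjusted p = 2.5e-06) at 24 h, and within runs 1 and 3 it was 1.72 and 1.41 at 6 h. BMF, a BH3-only protein tied to the cytoskeleton, was 2.95-fold higher at 6 h and 3.93-fold higher at 24 h with its brighter probe A_23_P379649. That probe read -4.58, -4.82 and -4.68 in untreated A549 at 24 h and -2.98, -2.86 and -2.31 in untreated H1975 (log2 difference 1.97, SE 0.20, limma adjusted p = 8.4e-08). The dim second BMF probe had an SE of 0.74 and did not pass.

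BID, which caspase-8 cuts to link death receptors to the mitochondria, was lower in H1975 by both probes, which lie close together on chromosome 22 without overlap. The brighter one read 3.71, 3.53 and 3.87 in A549 and 2.95, 2.46 and 2.42 in H1975 at 6 h, with no overlap. The difference was -1.10 (SE 0.17, limma adjusted p = 2.0e-05) at 6 h and -1.01 (limma adjusted p = 5.1e-05) at 24 h, the latter just past the fold limit. BAD, the growth factor-controlled antagonist of BCL-xL, differed by -0.80 (limma adjusted p = 2.2e-04) and -0.70 (limma adjusted p = 7.9e-04) by its brighter probe and did not pass by its other one. BCL2L11 passed with none of its 3 probes, whose differences lay between -0.39 and 0.33 over both times. Within-run values of the 7 probes that passed the fold limit kept their sign in both shared runs at both times.

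The question of the drug comparison was whether Pirfenidone changed these regulators. No member probe passed with the fold limit in any of the 4 comparisons of Pirfenidone with PBS, beside 0.176% of all probes in A549 after 6 h and 0.0126% after 24 h, and in H1975 0.491% after 6 h and 1.89% after 24 h. At an unadjusted p under 0.05, limma gave 2, 0, 3 and 2 of the 17 probes in the same order, beside 6.01%, 0.953%, 11% and 22% of all probes. Without the fold limit, 0 member probes passed in A549 at 6 h (0.34% of all probes) and at 24 h (0.0126%), 1 passed in H1975 after 6 h (1.41%) and 1 after 24 h (6.26%). These were BCL2L1 at 6 h and the BAX probe A_33_P3341144 at 24 h, both lower with the drug, and each is 5.88% of 17. The median difference of the member probes was 0.02, -0.08, -0.02 and 0.02, beside -0.01, -0.02, 0.05 and 0.02 over all probes. Arrays of drug and PBS did not overlap for 2, 0, 4 and 5 member probes, where 15.3%, 1.82%, 17.8% and 31.9% of all probes did not. Since a p over the threshold does not show that a gene stayed level, the intervals matter: apart from the dim BMF probe, the 95% intervals of the differences lay within -1.30 and 1.16 in all 4 comparisons.

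**Figure D3:**
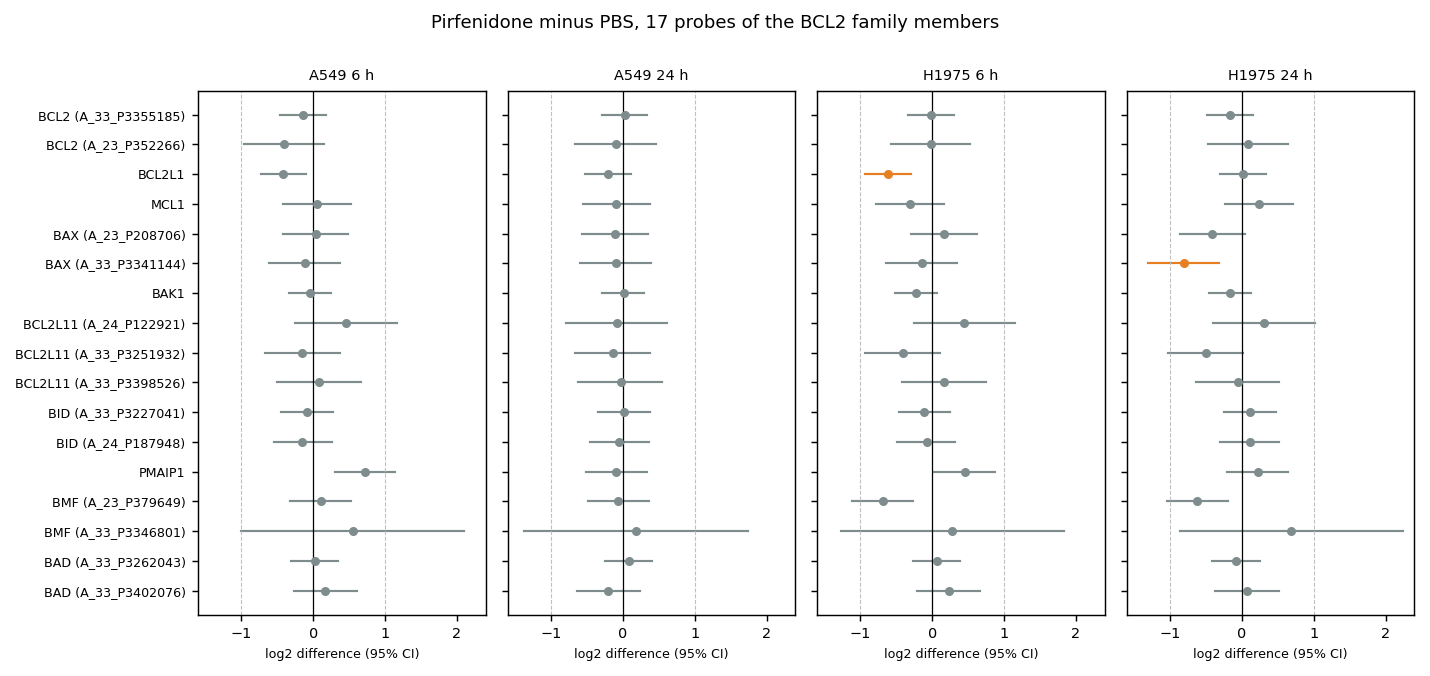
Log2 difference of Pirfenidone minus PBS (horizontal axes) with its 95% confidence interval for the 17 member probes in the 4 comparisons. Orange marks probes that passed the adjusted p without the fold limit, BCL2L1 in H1975 at 6 h and BAX A_33_P3341144 in H1975 at 24 h, and gray marks the rest. The widest intervals belong to the dim BMF probe A_33_P3346801.

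BCL2L1 read -1.64, -1.41 and -1.56 in H1975 at 6 h with PBS and -1.96, -2.18 and -2.33 with Pirfenidone, so all 3 treated arrays lay below all untreated ones. The level was 1.53-fold lower (log2 difference -0.62, SE 0.15, 95% interval -0.93 to -0.30, limma adjusted p = 0.0473). The adjusted p was 0.0404 with run as a block, and within runs 1, 3 and 4 the difference was -0.69, -0.55 and -0.61. The call was lost after normexp correction (log2 difference -0.34, adjusted p = 0.23), without the filter on dim probes (adjusted p = 0.073), in a fit of only the arrays compared (adjusted p = 0.187) and when any 1 of the 6 arrays was left out (adjusted p between 0.0558 and 0.189). At 24 h the groups overlapped, at -1.46, -1.44 and -1.68 with PBS and -1.40, -1.52 and -1.61 with the drug (log2 difference 0.02, 95% interval -0.30 to 0.33). The difference between the times did not pass (log2 difference 0.63, SE 0.21, limma adjusted p = 0.588). In A549 at 6 h the arrays also did not overlap, with -0.35, -0.36 and -0.16 under PBS and -0.64, -0.64 and -0.84 under the drug, but the difference of -0.42 did not pass (SE 0.15, limma adjusted p = 0.503).

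The other survival genes gave small differences. MCL1 differed by 0.05 and -0.09 in A549 and by -0.31 and 0.24 in H1975 at 6 h and 24 h, with an SE of 0.22 each. Its treated arrays in H1975 at 6 h, at 0.30, 0.21 and -0.37, overlapped the PBS arrays. Both BCL2 probes lay within -0.41 and 0.09 in all 4 comparisons.

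BAX was lower by its probe A_33_P3341144 in H1975 after 24 h of Pirfenidone. That probe read -2.71, -2.81 and -2.45 with PBS and -3.30, -3.69 and -3.39 with the drug, without overlap. The level was 1.75-fold lower (log2 difference -0.81, SE 0.23, 95% interval -1.30 to -0.32, limma adjusted p = 0.0469). With run as a block the adjusted p was 0.0174, and the differences in runs 1, 3 and 4 were -0.94, -0.60 and -0.88. The call was lost after normexp correction (adjusted p = 0.179), without the filter on dim probes (adjusted p = 0.068), in a fit of only the arrays compared (adjusted p = 0.0603) and when any 1 of the 6 arrays was left out (adjusted p between 0.0659 and 0.144). The probe A_23_P208706, at 2.51, 2.63 and 2.82 with PBS and 2.29, 1.96 and 2.49 with the drug, did not overlap between groups either but did not pass (log2 difference -0.41, SE 0.22, limma adjusted p = 0.29). BAK1, the other pore former, gave differences between -0.23 and 0.01 in the 4 comparisons.

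PMAIP1 gave the largest member difference in A549. At 6 h it read -0.04, -0.25 and -0.10 with PBS and 0.38, 0.56 and 0.82 with Pirfenidone, and no arrays overlapped. The level was 1.64-fold higher (log2 difference 0.72, SE 0.20), but the limma adjusted p was 0.217. It was higher in each of runs 1, 2 and 3, by 0.92, 0.42 and 0.81, and with run as a block the adjusted p was 0.00768. In H1975 at 6 h PMAIP1 was higher by 0.45 (SE 0.20, limma adjusted p = 0.394), again in all 3 runs, by 0.65, 0.34 and 0.37 in runs 1, 3 and 4. There the run block gave an adjusted p of 0.0407, although the treated arrays at 1.5, 1.69 and 2.27 overlapped the PBS arrays at 1.62, 1.16 and 1.33. At 24 h the differences were -0.09 in A549 and 0.22 in H1975. In A549 all arrays of 6 h Pirfenidone lay above those of the other 3 A549 groups, which overlapped one another.

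The brighter BMF probe gave lower values under the drug in H1975 without passing. It read -3.23, -3.0 and -3.02 with PBS and -3.61, -3.67 and -4.05 with Pirfenidone at 6 h, and -2.98, -2.86 and -2.31 against -3.28, -3.28 and -3.45 at 24 h. At both times all treated arrays lay below all PBS arrays. The differences were -0.69 (SE 0.20, limma adjusted p = 0.118) and -0.62 (SE 0.20, limma adjusted p = 0.0747). With run as a block the adjusted p was 0.0733 and 0.0518, and after normexp correction the 6 h difference was -0.10, where the median of all probes was 0.29. In A549 the differences were 0.11 and -0.06. The difference between the lines in the drug response was -0.80 (SE 0.29) at 6 h, with an unadjusted limma p of 0.0118 and an adjusted p of 1. Treated H1975 arrays at 6 h were still at or above -4.05 and treated A549 arrays at or below -4.23, so the lines did not overlap under the drug. The dim probe differed by 0.28 and 0.69 in H1975, with an SE of 0.74.

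The 3 BCL2L11 probes gave unlike values. In H1975 at 6 h, probe A_24_P122921 read 0.01, -0.02 and 0.08 with PBS and 0.36, 0.41 and 0.64 with Pirfenidone, while A_33_P3251932 read -1.67, -1.91 and -2.05 and then -2.21, -2.57 and -2.07. Neither probe's groups overlapped, in opposite directions, by 0.44 (SE 0.34) and -0.41 (SE 0.25), and neither passed (limma adjusted p = 0.751 and 0.63). The pattern was the same at 24 h, at 0.31 and -0.50. The third probe, A_33_P3398526, had H1975 means of -2.0 with PBS and -1.84 with the drug at 6 h. At 24 h its means were -1.89 and -1.95. Taken as a ratio within each array, which shows unequal change of the 2 probes, the first minus the second was 1.68, 1.89 and 2.13 with PBS and 2.57, 2.98 and 2.71 with the drug at 6 h, a shift of 0.85. At 24 h the shift was 0.81, again without overlap. The A549 shift was 0.60 early and 0.06 late, and there the groups overlapped. The ratio also moved without the drug. In A549 with PBS it was 2.06, 1.0 and 1.08 at 6 h and 2.61, 2.17 and 3.03 at 24 h, without overlap. These comparisons were made after the values had been seen. An exact two-sided permutation test of 3 arrays against 3 cannot go below 0.1, which it gave at both H1975 times (0.16 after adjustment over 8 such comparisons of BCL2L11 and BAX). The same p of 0.1 was given by the 2 BAX probes in A549 at 6 h (shift 0.16) and in H1975 at 6 h (0.31) and 24 h (0.40), by the same exact permutation test. In limma's test of each probe against the other probes of its gene, 0 of 13 member probes of 6 genes passed in any of the 4 comparisons, beside 0.06%, 0%, 0.1% and 0.12% of 10003 probes, and the smallest unadjusted p was 0.0571.

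**Figure D4:**
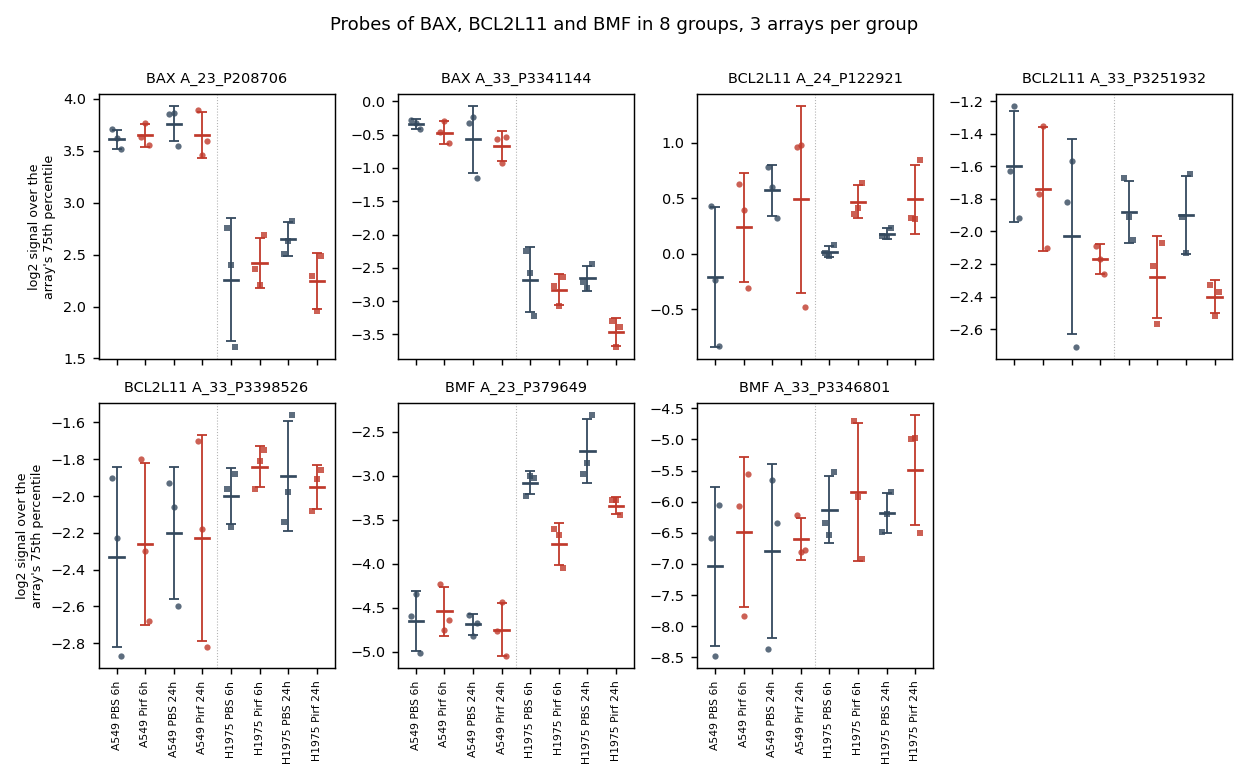
Log2 signal over the 75th percentile of the array for the 2 BAX, 3 BCL2L11 and 2 BMF probes in the 8 groups, with each array as a point and the mean and SD as bars, PBS in dark and Pirfenidone in red. In H1975 the BCL2L11 probes A_24_P122921 and A_33_P3251932 lay above and below their PBS arrays after the drug.

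BID and BAD, the remaining BH3-only genes, gave small differences. The differences of their 4 probes lay between -0.20 and 0.23 in the 4 drug comparisons, and the smallest limma adjusted p among them was 0.782. The brighter BAD probe read 2.22, 2.38 and 2.61 with PBS and 2.20, 2.45 and 2.64 with the drug in A549 at 6 h, which is a difference of 0.02 (95% interval -0.31 to 0.35).

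Time in culture and the contrasts of contrasts were tested as well. Between 24 h and 6 h in PBS, 0 of 17 member probes passed even without the fold limit in A549 (0.134% of all probes) or H1975 (0.663%), and limma gave 1 of 17 at an unadjusted p under 0.05 in each, beside 8.49% and 10.6% of all probes. In A549 that was BCL2L11 A_24_P122921, higher by 0.78 at 24 h (limma adjusted p = 0.548). In H1975 it was BAK1, with a difference of -0.32 (limma adjusted p = 0.402). No member probe passed for the difference between the lines in the drug response at 6 h (0.0378% of all probes) or 24 h (0.239%), or for the difference between the times in A549 (0.0294%) or H1975 (0.00839%). At an unadjusted p under 0.05, limma gave 1 of 17 in each, beside 2.63%, 12.2%, 3.04% and 5.86% of all probes. These were BMF A_23_P379649, BAX A_33_P3341144 (log2 difference -0.71), PMAIP1 (-0.81) and BCL2L1, in that order. The BAX contrast takes in A549 at 24 h, where this probe differed by 0.62 in the pair of arrays numbered 3 and by -0.24 and -0.68 in the other pairs. All these contrasts share their PBS samples with the drug comparisons.

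A549 at 24 h needs its replicate 3 in view. In the pair of arrays numbered 3, from run 1, the difference of drug minus PBS for the BAX probe A_33_P3341144 was 0.62, while it was -0.24 and -0.68 in the pairs of runs 2 and 3. The same pair went against the others for BCL2L11 A_33_P3251932 (0.44 against -0.27 and -0.60) and for BIRC5, which encodes the survival protein Survivin (1.48 against -0.23 and -0.83). Without both arrays the difference was -0.46 for that BAX probe (limma adjusted p = 0.661, against -0.10 with them) and -0.40 for BCL2L1 (limma adjusted p = 0.515, against -0.20). No member probe passed with or without them.

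The genes around the members were taken from 4 lists. Of 11 other BCL2 family genes, 10 were tested with 15 probes, and BBC3 was the one that passed in a drug comparison, with or without the fold limit. BBC3 encodes PUMA, a BH3-only protein that binds all survival members. It read -0.62, -0.98 and -0.97 in untreated H1975 and 0.30, 0.43 and 1.15 in treated H1975 at 6 h, so the groups stood apart. The rise was 2.79-fold (log2 difference 1.48, limma adjusted p = 0.00507) at 6 h and 2.24-fold (log2 difference 1.16, limma adjusted p = 0.0138) at 24 h. In all 3 runs it was higher, by 1.77, 1.28 and 1.40 at 6 h in runs 1, 3 and 4. At 24 h it passed in 4 of the 6 fits that left out 1 array, at adjusted p-values between 0.0183 and 0.103, and it passed at neither time in a fit of only the arrays compared (adjusted p = 0.132 and 0.0759). In A549 it was higher by 0.72 at 6 h (limma adjusted p = 0.501), with 2.35, 2.46 and 2.32 against 1.89, 1.81 and 1.28, and the difference at 24 h was -0.10. Untreated H1975 held 5.70-fold less BBC3 RNA than untreated A549 at 6 h (log2 difference -2.51, limma adjusted p = 8.2e-08). The survival genes BCL2A1 and BCL2L2 passed in no drug comparison, with limma adjusted p-values of at least 0.101. Between the lines in PBS, the BCL2A1 probe A_23_P152002 was lower in H1975 past the fold limit. Its log2 difference was -4.02 at 6 h (limma adjusted p = 7.6e-06) and -5.5 at 24 h (limma adjusted p = 1.3e-07). The brighter BCL2A1 probe differed by -0.54 and -0.52, under the fold limit, and BCL2L2 by 0.07 and -0.03. The median of the 15 probes was 0.02 and -0.04 in A549, and -0.09 and 0.07 in H1975, at the early and the late time.

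Of 21 regulators of the family 19 were tested with 30 probes. In A549 at 6 h, 2 genes passed with the fold limit, both higher: DDIT3, which encodes the stress factor CHOP (log2 difference 2.19, limma adjusted p = 0.0233), and TRIB3, a pseudokinase of the same response (log2 difference 1.24, limma adjusted p = 0.0258). After 24 h no regulator passed in A549. The same 2 passed in H1975 at 6 h, by 2.08 and 1.0 (limma adjusted p = 0.0148 and 0.0436), and ATF4, the transcription factor upstream of both, passed without the fold limit by 0.75 (limma adjusted p = 0.00165). In H1975 at 24 h DDIT3 (1.71), TRIB3 (1.08) and ATF3 (3 of its 4 probes, 1.35, 1.35 and 1.09) passed with the fold limit, and ATF4 passed without it by 0.69. E2F1, which drives S phase entry, was lower, just under the fold limit (log2 difference -1.0, limma adjusted p = 0.0221). DDIT3 read -0.46, -0.76 and -0.67 with PBS and 0.96, 1.16 and 2.24 with the drug in H1975 at 6 h, and no arrays overlapped. The difference between the lines at 24 h did not pass for any regulator named here (ATF4, log2 difference 0.76, limma adjusted p = 0.055). In A549 at 24 h the pair of arrays numbered 3 went against the other pairs for several regulators. These were TRIB3 (-0.97 against 0.23 and 0.55), ATF4 (-0.45 against 0.07 and 0.18) and E2F1 (0.96 against -0.19 and -0.54). For the brightest ATF3 probe all pairs were below PBS (-0.59, -0.26 and -0.28).

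**Figure D5:**
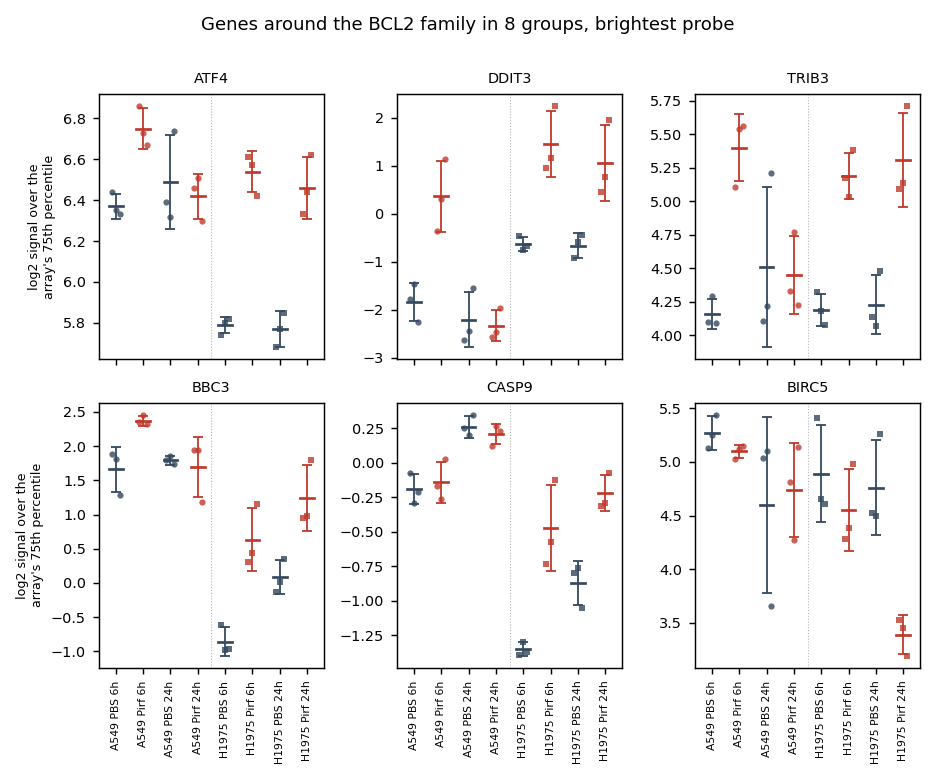
Log2 signal over the 75th percentile of the array of ATF4, DDIT3, TRIB3, BBC3, CASP9 and BIRC5, brightest probe each, in the 8 groups, with each array as a point and the mean and SD as bars, PBS in dark and Pirfenidone in red. ATF4, DDIT3, TRIB3, BBC3 and CASP9 lay above their PBS arrays in H1975 at both times, and BIRC5 lay below them at 24 h.

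Downstream of the mitochondria, 20 caspase, apoptosome and IAP genes were tested with 31 probes. None passed in A549 at either time, with or without the fold limit. In H1975 at 6 h CASP9, the initiator caspase of the apoptosome, was higher by 0.88 and passed without the fold limit (limma adjusted p = 0.00165). It read -1.39, -1.30 and -1.37 with PBS and -0.73, -0.57 and -0.12 with the drug, without overlap, and was still higher by 0.65 at 24 h (limma adjusted p = 0.01). At 24 h in H1975, 2 genes were higher (CASP9 and XIAP) and 4 were lower without the fold limit, where 6.26% of all probes passed. XIAP, an inhibitor of caspases, was higher by 0.75 with its dimmer probe, at 1.54, 0.28 and 0.44 in runs 1, 3 and 4. The brighter XIAP probe did not pass (log2 difference 0.39, limma adjusted p = 0.227). The 4 lower genes were BIRC5, CYCS (cytochrome c, log2 difference -0.55 with 1 of 3 probes), CASP10 (-0.68 with 1 of 3 probes) and AIFM1 (-0.35). BIRC5 alone passed with the fold limit. BIRC5 read 4.52, 4.50 and 5.26 with PBS and 3.53, 3.45 and 3.19 with the drug, a 2.58-fold lower level (log2 difference -1.37, limma adjusted p = 0.0214). The median of this list at that time was -0.05 beside 0.02 over all probes.

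Of 14 death receptor and ligand genes 13 were tested with 16 probes. TNFRSF10D, a decoy receptor for TRAIL, was 2.63-fold lower in A549 at 6 h (log2 difference -1.40, limma adjusted p = 0.0063). TNFRSF10B, the TRAIL receptor DR5, was higher in H1975 at 24 h by 0.65 and passed without the fold limit (limma adjusted p = 0.0126). No other gene of this list passed in a drug comparison. The lists of regulators, caspases and receptors were written by hand and their counts are descriptions, read beside the shares of all probes given for the same comparisons.

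The gene most like each member was found among 23748 probes by Pearson r over the 24 arrays after the mean of each line was subtracted. Each member entered by its brightest probe alone, which for BCL2L11 was A_24_P122921. All arrays of a run and a treatment enter each r, so it describes these arrays and has no test. BCL2L11 was most like SNAI1 (r = 0.97), BAK1 most like NSFL1C (r = 0.94), PMAIP1 most like IFRD1 (r = 0.93), BAD most like BABAM1 (r = 0.93), BAX most like AP1S1 (r = 0.92) and BID most like ARMC10 (r = 0.91). BCL2 was most like TCEB3 (r = 0.89), BCL2L1 most like ARHGEF10 (r = 0.86), MCL1 most like a probe named lnc-FAM43A-2 (r = 0.86) and BMF most like C1orf110 (r = 0.83). Between the brightest probes of the members, the highest r was 0.61, for BAK1 and BAD, and the lowest was -0.60, for BAK1 and BCL2L11.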

How the data were processed

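RNA of A549 and H1975 cells was measured on one-color Agilent arrays, 24 in all. Per the file headers, the authors extracted the spot intensity with Agilent Feature Extraction version 11.5.1.1, which subtracts background, and the deposited scanner files are not normalized between arrays. A deposited table of the authors' log2 values, centered per probe, served as an alternative.

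Each processed signal was taken as log2 and the 75th percentile of the 43118 spots on its array that are not controls was subtracted. Spots marked as outliers were dropped and repeat spots averaged. A probe cleared the background on an array when 0.5 or more of its spots did, as 62.7% to 69.5% of probes did per array, and no spot was saturated. All 8 groups were fitted together with lmFit and eBayes (limma 3.58.1, R 4.3.3), leaving 16 residual degrees of freedom, and the steps were tested on simulated data. The methods' Westfall-Young adjustment cannot pass with 3 arrays against 3, so Benjamini-Hochberg took its place. Probe accessions matched RefSeq (GRCh38.p14) for 16 of 17 member probes.

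The members and lists were chosen with earlier results of these data known. All member probes were named, and from the other lists every gene that passed in a drug comparison plus BBC3, BCL2A1, BCL2L2 and BIRC5. The gene most like each member was the one with the highest r to the member's brightest probe.

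The numbers of the samples pair them only in part. Deviations from the group means of same-numbered drug and PBS samples correlated by 0.70, 0.58 and 0.64 in A549 at 6 h and by 0.46, 0.53 and 0.72 in H1975 at 24 h, but not throughout in A549 at 24 h (0.39, 0.08 and -0.10) or H1975 at 6 h (-0.48, 0.43 and -0.68). Paired by run, H1975 at 6 h gave 0.82, 0.50 and 0.70.

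The alternatives were normexp (offset 50), quantile normalization, the authors' values, no filter or a stricter filter on dim probes, a block for replicate number, run or slide, only the arrays compared, Holm adjustment, no fold limit, a plain test of the differences within runs, A549 at 24 h without the samples numbered 3, and each array left out. The tests of probes of 1 gene against each other were added after the data had been seen. A further motif search and 1 gene among the markers of other cells are not reported here.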

Additional observations from a re-analysis of the deposited data

How the results depend on the processing

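The count of 0 member probes past the fold limit held in the 4 drug comparisons, the 2 time comparisons and the 4 differences of responses under every alternative that kept the limit. Without the limit 1 member probe passed in H1975 at 6 h and 1 at 24 h. With run as a block and no limit, 1 member probe (PMAIP1) passed in A549 at 6 h. For H1975 these were 2 at 6 h (BCL2L1 and PMAIP1) and 1 at 24 h (BAX). The run block raised the calls among all 23827 probes as well. The early A549 comparison had 103 higher and 67 lower probes, beside 81 passing without the block. Early H1975 had 570 higher and 241 lower (335 without the block), and late H1975 had 1619 and 1538 (1492 without it). With the run block and the limit, 7 member probes passed between the lines at 6 h and 5 at 24 h. With a Holm adjustment 4 probes passed between the lines at each time in place of 7, and with single arrays left out the count was 7 at 6 h and between 5 and 7 at 24 h. With the replicate block, a term shared by all groups, 0 members passed in the drug comparisons and 7 between the lines at each time. That block is not a pairing of drug with PBS samples. Without the fold limit, the replicate block ended the call of BCL2L1 in H1975 at 6 h (adjusted p = 0.0515), where the numbers do not pair the samples. Normexp correction moved the median of all probes in H1975 at 6 h to 0.29, so the BCL2L1 difference of -0.34 there stands below that shift. Without the fold limit, BMF in H1975 at 24 h passed after quantile normalization (adjusted p = 0.0377). With slide as a block, BMF passed at 6 h and 24 h in H1975 (adjusted p = 0.0457 and 0.0354), and PMAIP1 at 6 h in A549 and H1975 (adjusted p = 0.0052 and 0.022). The cause of these changes was not tested. Slide could not be fitted as a block between the lines, since each slide held 1 line. Slide 1 held a single array, H1975 PBS 24 h replicate 1. The slide block thus left that array out of the H1975 difference at 24 h. Signal near background limits the BCL2 probe A_23_P352266 and the BMF probe A_33_P3346801.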
